A study of Mus musculus with 8 samples.

Results

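The T and NK lymphocyte genes are a list of 31 genes that mark T cells and natural killer (NK) cells, measured in the epididymal fat of mice given prednisolone or vehicle. The list holds subunits of the T cell receptor complex, coreceptors, costimulatory and cytokine receptors, lineage transcription factors, cytotoxic granule proteins and NK receptors. Members were matched by symbol to probe sets that the platform annotation assigns to 1 gene, and 28 of the 31 were found among the 22180 genes of the series. The other 3, Cd247, Lck and Tcf7, were not analysed here. Each of the 28 had 1 such probe set, and dim genes were kept.

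The study profiled the left epididymal fat pad of 8 male C57BL/6 mice on Affymetrix Mouse Gene 2.0 ST arrays, with 1 array per mouse. The 4 GC+ mice received the synthetic glucocorticoid prednisolone every day in sweet potato puree, at a dose the labels give as 40 mg/kg/m2, from 6 weeks of age for 4 weeks. The 4 GC- mice received the puree alone. All 8 mice were weaned at 3 weeks onto an n-6 rich high fat diet, in which fat supplied 45% of the energy, and were killed at 10 weeks, so no lean or chow-fed group was compared. The mice are called prednisolone mice and vehicle mice here and are numbered as in their labels. Values are log2 expression values, and a difference is the prednisolone mean minus the vehicle mean on that scale, with the standard error (SE) of the limma linear model and n = 4 mice per group.

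T cells recognise peptides through a receptor whose signal is carried into the cell by the CD3 chains, and the coreceptors CD4 and CD8 divide them into helper and cytotoxic lineages. NK cells lack that receptor, read a balance of activating and inhibitory receptors, and kill with perforin and granzymes. Fat holds both kinds of cell, with regulatory T cells that express Foxp3 and type 2 innate lymphoid cells among the residents of lean visceral fat, and CD8 T cells and interferon gamma-producing cells known to gather in obese fat. Glucocorticoids are used as drugs because they restrain lymphocytes, and in isolated T cells they induce Il7r. In whole tissue, fewer cells of a type and less RNA per cell cannot be told apart.

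Promoter windows are shown for 7 members, which were picked by their values in these data. They are Il7r, the member of lowest p, Cd5, the member whose groups did not overlap, and Gzma, Nkg7, Klrb1c, Klrk1 and Ncr1, the cytotoxic and NK members with a window whose prednisolone mice spread over more than 1 log2 unit. Each window runs from 250 bases before to 50 bases after the gene's start, read 5′ to 3′ on the gene's strand, from RefSeq on build GRCm38.p6. Capitals mark matches on either strand to 4 short motifs, AGGAAG for ETS factors, TGTGGT for RUNX factors, GGTGTGA for T-box factors and AGAACA, the arm of the glucocorticoid response element. Gzma lies at chr13:113100932-113101231 (minus strand), Nkg7 at chr7:43436888-43437187 (plus), Klrb1c at chr6:128788592-128788891 (minus), Klrk1 at chr6:129623815-129624114 (minus), Ncr1 at chr7:4337465-4337764 (plus), Il7r at chr15:9529827-9530126 (minus) and Cd5 at chr19:10738925-10739224 (minus).
Gzma: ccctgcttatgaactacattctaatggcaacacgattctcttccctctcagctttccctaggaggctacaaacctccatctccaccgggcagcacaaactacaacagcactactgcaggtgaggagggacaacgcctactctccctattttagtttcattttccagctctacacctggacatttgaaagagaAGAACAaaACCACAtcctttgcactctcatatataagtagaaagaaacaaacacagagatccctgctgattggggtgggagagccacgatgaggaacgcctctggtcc
Nkg7: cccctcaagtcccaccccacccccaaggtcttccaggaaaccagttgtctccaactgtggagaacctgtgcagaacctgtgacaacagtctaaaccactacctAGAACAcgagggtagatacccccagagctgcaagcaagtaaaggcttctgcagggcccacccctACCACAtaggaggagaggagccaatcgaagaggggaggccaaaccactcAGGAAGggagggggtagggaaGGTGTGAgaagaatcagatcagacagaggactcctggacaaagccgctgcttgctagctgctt
Klrb1c: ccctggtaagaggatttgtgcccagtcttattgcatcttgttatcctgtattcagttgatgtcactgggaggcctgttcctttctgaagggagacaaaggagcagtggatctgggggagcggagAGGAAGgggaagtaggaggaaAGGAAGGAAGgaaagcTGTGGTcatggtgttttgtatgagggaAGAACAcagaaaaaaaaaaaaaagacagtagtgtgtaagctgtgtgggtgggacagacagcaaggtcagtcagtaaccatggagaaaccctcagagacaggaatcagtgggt
Klrk1: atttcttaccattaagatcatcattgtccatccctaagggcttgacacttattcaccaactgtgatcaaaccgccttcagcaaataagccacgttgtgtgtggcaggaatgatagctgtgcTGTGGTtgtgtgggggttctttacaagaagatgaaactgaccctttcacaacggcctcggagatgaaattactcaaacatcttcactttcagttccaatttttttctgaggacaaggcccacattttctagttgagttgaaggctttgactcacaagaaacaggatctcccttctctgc
Ncr1: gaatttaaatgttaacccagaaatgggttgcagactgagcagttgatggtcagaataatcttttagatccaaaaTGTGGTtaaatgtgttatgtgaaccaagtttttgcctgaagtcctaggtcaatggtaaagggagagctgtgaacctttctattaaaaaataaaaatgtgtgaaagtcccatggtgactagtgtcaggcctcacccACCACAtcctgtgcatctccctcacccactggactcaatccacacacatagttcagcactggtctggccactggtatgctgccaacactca
Il7r: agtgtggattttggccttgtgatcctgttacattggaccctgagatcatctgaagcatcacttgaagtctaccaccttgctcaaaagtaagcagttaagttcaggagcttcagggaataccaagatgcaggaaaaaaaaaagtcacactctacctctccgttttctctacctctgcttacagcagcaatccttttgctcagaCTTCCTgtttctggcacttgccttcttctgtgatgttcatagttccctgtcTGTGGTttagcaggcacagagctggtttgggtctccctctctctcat
Cd5: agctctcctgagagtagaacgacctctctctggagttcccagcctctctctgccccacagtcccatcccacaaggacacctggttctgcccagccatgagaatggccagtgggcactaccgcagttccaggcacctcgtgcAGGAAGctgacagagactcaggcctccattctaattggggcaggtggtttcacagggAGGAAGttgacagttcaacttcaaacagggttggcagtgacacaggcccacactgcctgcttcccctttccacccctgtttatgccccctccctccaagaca

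The RUNX hexamer was the motif most unevenly spread over the members. The table held windows for 20 of the 28 members, and TGTGGT or its reverse complement ACCACA occurred in 9 of them (45%), against 16.9% of 27025 windows, 1 per gene. It lay in 7 of the 8 windows of cytotoxic, effector and NK receptor genes, those of Gzma, Gzmb, Klrb1c, Klrk1, Ncr1, Nkg7 and Prf1 but not Ifng. Of the 12 other members with a window, 2 held it, Il7r and Trat1. The ETS hexamer AGGAAG occurred in 9 of 20 member windows (45%) and in 35.1% of all windows, and the T-box heptamer GGTGTGA in 2 (10%) and in 3.96%. The hexamer AGAACA was found in 5 member windows (25%) and in 19.0% of all. The full palindrome, AGAACA and TGTTCT set 3 bases apart, was found in 0 member windows and in 1 of all 27025. In the Klrb1c window, a pair of ETS matches overlapped each other, and no other matches overlapped in the member windows. A match describes the letters only, and the counts were not tested.

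Adipocyte transcripts were bright on every array, and lymphocyte transcripts had low signal. Adipoq, the adipocyte hormone adiponectin, read 12.04 to 12.29 in prednisolone mice and 11.74 to 12.16 in vehicle mice. Of the 28 members, 26 had a mean signal below the median gene (6.62), and 12 fell in the dimmest 33.3% of genes, below 5.82. Only Il7r and Nkg7 lay above the median gene. RMA values carry no detection call, so a low reading cannot be set apart from background. Arrays also differed in epididymal transcripts. The mean deviation of 17 epididymal genes from their 8-array means was 2.95 in prednisolone mouse 2, and 2.98 and 1.87 in vehicle mice 1 and 4. Of the other 5 arrays, prednisolone mouse 1 had a score of 0.09, and the rest scored -2.29 to -1.34. The epididymal gene Gpx5 read 11.27 for prednisolone mouse 1 and 8.69 for vehicle mouse 3. Its values on the rest of those 5 arrays were 4.19 to 4.76, and on the 3 arrays of highest score 13.60 to 13.81. Values without the 3 arrays that scored above 1 are given beside several results below. They compare prednisolone mice 1, 3 and 4 with vehicle mice 2 and 3 only, and most are given without an interval. Those values still include prednisolone mouse 1 and vehicle mouse 3 and are therefore not free of epididymal transcripts.

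No T or NK gene passed the test between prednisolone and vehicle mice. With limma over all 22180 genes and Benjamini-Hochberg adjustment at 0.05, 0 of 28 members were called higher and 0 lower, where 0% of all genes were called in either direction, and the members' adjusted p-values ran from 0.791 to 0.997. Before adjustment 2 members had a p under 0.05 (7.14%, against 5.61% of all genes). Both, Il7r and Ifng, were higher with prednisolone, as were 3.51% of all genes, and 0 were lower, against 2.1% of all genes. On average 15 members were higher and 13 lower, and 56.4% of all genes were higher. The median difference of the members was 0.01, against 0.02 over all genes. Leaving out prednisolone mouse 1 gave a members' median of -0.03, and leaving out prednisolone mouse 3 gave 0.12. The groups did not overlap in 1 member, Cd5 (3.57%), against 3.25% of all genes. Cd5 lay above in prednisolone mice, as did 1.99% of all genes, and 0 members lay above in vehicle mice, against 1.25%.

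**Figure D1:**
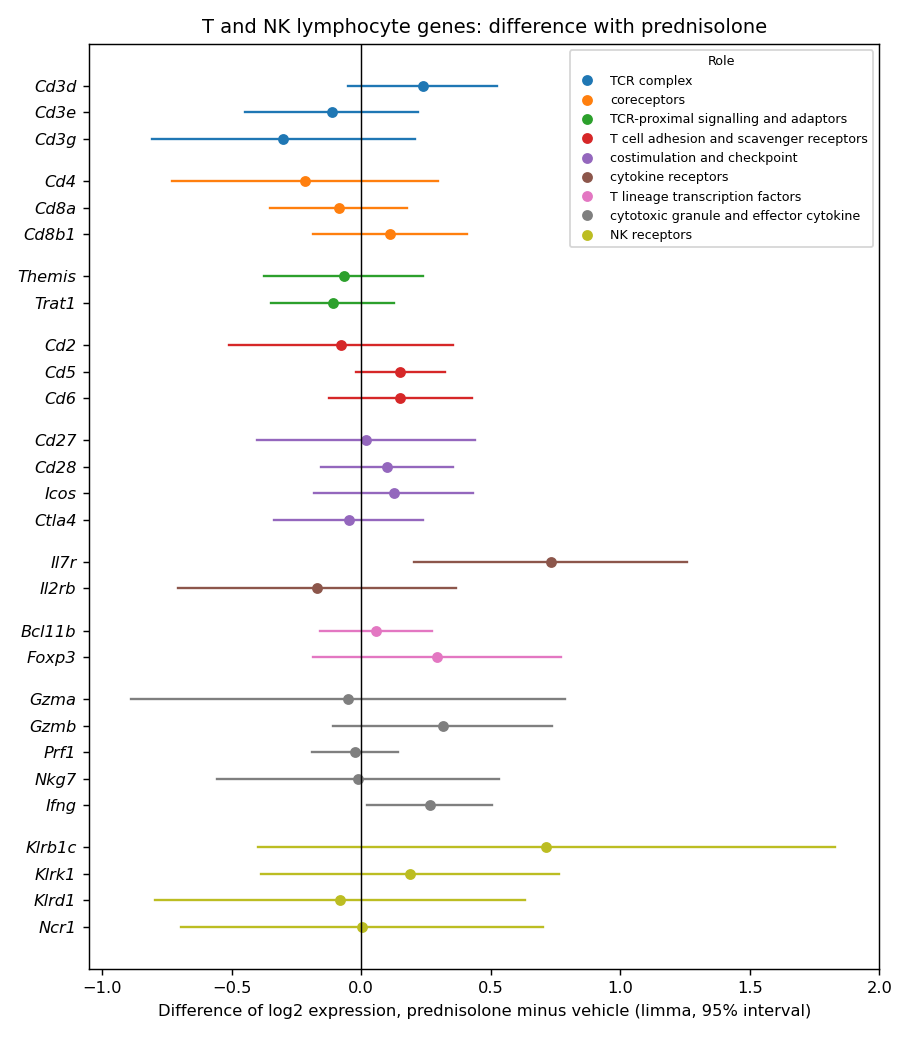
Difference of log2 expression (prednisolone minus vehicle, horizontal axis) for the 28 measured T and NK genes, grouped and coloured by role, where points are limma estimates and lines their 95% intervals (n = 4 mice per group). The intervals of Il7r (0.20 to 1.26) and Ifng (0.02 to 0.51) lie above 0 before adjustment, the other 26 cross 0, and no gene passed the adjusted threshold.

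The CD3 chains had average differences of either sign, none of which passed the test. In all 3, prednisolone mouse 1 was the highest of its group, vehicle mouse 2 the highest of its group and vehicle mouse 1 the lowest. Cd3e, the chain found in every T cell receptor complex, read 6.52, 6.41, 6.12 and 6.50 in prednisolone mice 1 to 4 and 6.22, 6.84, 6.48 and 6.46 in vehicle mice 1 to 4. The highest value was that of vehicle mouse 2 and the lowest that of prednisolone mouse 3, and the groups overlapped. Its difference was -0.11 ± 0.15 (SE, 95% interval -0.45 to 0.22, limma adjusted p = 0.877). Leaving out vehicle mouse 2 gave -0.00034, leaving out vehicle mouse 1 gave -0.21, and the difference was -0.28 without the 3 arrays rich in epididymal transcripts. Cd3g, which pairs with Cd3e, read 6.08, 5.50, 4.93 and 5.56 with prednisolone, against 5.57, 6.07, 5.77 and 5.86 with vehicle. Prednisolone mouse 3 was again lowest, while mouse 1 matched the highest vehicle mouse. The difference of Cd3g was -0.30 ± 0.22 (adjusted p = 0.804). It was -0.49 without prednisolone mouse 1, -0.10 without prednisolone mouse 3 and -0.40 without the same 3 arrays. Cd3d, whose gene neighbours Cd3g, read 5.93, 5.47, 5.52 and 5.60 with prednisolone and 5.19, 5.56, 5.39 and 5.43 with vehicle. It leaned the other way, at 0.24 ± 0.13 (95% interval -0.05 to 0.52, adjusted p = 0.791), with 1 vehicle mouse, mouse 2, inside the prednisolone range.

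The coreceptors gave no separation of helper from cytotoxic T cells. Cd4 read 5.88, 5.73, 5.93 and 5.91 in prednisolone mice and 5.56, 6.04, 6.77 and 5.94 in vehicle mice. Vehicle mouse 3 stood above all others and vehicle mouse 1 below, so the vehicle range enclosed the prednisolone range. The Cd4 difference was -0.22 ± 0.23 (adjusted p = 0.848), 0.015 without vehicle mouse 3, and -0.50 without the 3 arrays rich in epididymal transcripts. The last value rests on vehicle mice 2 and 3 only, and so on the high reading of mouse 3. Cd8a, the chain found in both forms of CD8, read 5.40, 5.25, 5.60 and 5.28 with prednisolone and 5.52, 5.64, 5.25 and 5.46 with vehicle. These ranges nearly coincide, with a difference of -0.09 ± 0.12 (95% interval -0.35 to 0.18). Cd8b1, the CD8 beta chain, differed by 0.11 ± 0.13, and by 0.013 without those arrays. Within each array, Cd8a minus Cd4 averaged -0.48 ± 0.12 in prednisolone mice and -0.61 ± 0.64 in vehicle mice (SD, n = 4 each). The change of 0.13 had a two-sided exact permutation p of 0.857 (adjusted p = 0.857 over the 4 within-array differences tested), and it was -0.17 without vehicle mouse 3. The smallest p that 4 against 4 mice allow is 0.0286.

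Among genes around the T cell receptor and its costimulation, 0 passed the test. Themis and Trat1, a T cell selection protein and a receptor-associated adaptor, differed by -0.07 ± 0.13 and -0.11 ± 0.10. Cd2, an adhesion receptor, differed by -0.08 ± 0.19, and its direction turned without prednisolone mouse 3 (0.094) or without vehicle mouse 2 (0.02). Without the 3 arrays rich in epididymal transcripts it was -0.21. Cd5, a brake on T cell receptor signalling, read 6.39, 6.34, 6.21 and 6.28 with prednisolone, against 6.17, 6.20, 6.12 and 6.12 with vehicle. The groups did not overlap, with a narrow gap between 6.21 in prednisolone mouse 3 and 6.20 in vehicle mouse 2. The difference was 0.15 ± 0.08, a ratio of 1.11 (95% interval of the log2 difference -0.02 to 0.32, adjusted p = 0.791). Its neighbour and relative Cd6 differed by 0.15 ± 0.12 with overlapping groups, and by 0.03 without the same arrays. The costimulatory receptors Cd27, Cd28 and Icos differed by 0.02 ± 0.19, 0.10 ± 0.11 and 0.13 ± 0.13. Ctla4, the inhibitory receptor that competes with Cd28 for its ligands, differed by -0.05 ± 0.13. Of all 28 members, 20 differed by less than 0.2 in either direction (71.4%), against 76.0% of all genes, so that share is near the background.

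Il7r, the alpha chain of the interleukin 7 receptor that keeps naive and memory T cells alive, had the lowest p of the list and a difference close to that of Klrb1c. It read 7.01, 7.79, 7.55 and 7.25 in prednisolone mice 1 to 4, against 6.21, 7.07, 6.94 and 6.45 in vehicle mice 1 to 4. Only prednisolone mouse 1 lay below the highest vehicle value, that of mouse 2. The difference was 0.73 ± 0.23, a ratio of 1.66 (95% interval of the log2 difference 0.20 to 1.26, unadjusted p = 0.0121, limma adjusted p = 0.791). It ran from 0.58 to 0.86 over the fits that left out 1 mouse. The lowest vehicle values came from mice 1 and 4 and the highest prednisolone value from mouse 2, the 3 arrays rich in epididymal transcripts. Without those 3 arrays the difference was 0.26 (limma adjusted p = 0.965). That was smaller in size than those of Cd4, Klrb1c, Cd3g, Il2rb, Gzmb and Cd3e. With the epididymal score as a covariate the Il7r difference was 0.70 (limma adjusted p = 0.685). The part of epididymal tissue in the Il7r difference was not tested beyond these fits.

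Il7r and Cd3e had the same order of vehicle mice (2, 3, 4, 1 from high to low) but different orders of prednisolone mice. Il7r minus Cd3e within each array was 0.49, 1.38, 1.43 and 0.75 in prednisolone mice and -0.014, 0.23, 0.46 and -0.0098 in vehicle mice. The groups did not overlap, with 0.49 in prednisolone mouse 1 next to 0.46 in vehicle mouse 3. This is a description, since Il7r was known beforehand to have the lowest p. Crlf2, which joins Il7r to form the receptor for thymic stromal lymphopoietin, read 7.94, 7.92, 7.97 and 8.14 with prednisolone and 7.71, 7.71, 7.88 and 7.56 with vehicle. Its groups did not overlap (0.28 ± 0.10, adjusted p = 0.791), as in 3.25% of all genes. Crlf2 was named as the gene of lowest p among 8 genes of type 2 innate lymphoid cells, of which 4 were higher and 4 lower. Il2rb, the beta chain shared by the receptors for interleukins 2 and 15, differed by -0.17 ± 0.24, by 0.055 without prednisolone mouse 3 and by -0.34 without the 3 arrays. Its values ran from 5.58 to 6.81 in prednisolone mice and from 6.31 to 6.62 in vehicle mice.

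Foxp3, the factor that defines regulatory T cells, was not separated between groups. It read 6.11, 5.92, 6.31 and 6.56 in prednisolone mice and 5.55, 6.25, 6.30 and 5.63 in vehicle mice. Vehicle mice 1 and 4 lay below all prednisolone mice, and vehicle mice 2 and 3 lay inside their range. The difference was 0.29 ± 0.21 (adjusted p = 0.802), and 0.05 without the 3 arrays rich in epididymal transcripts, which include vehicle mice 1 and 4. Set against Cd4 on the same array, Foxp3 minus Cd4 was 0.23, 0.19, 0.38 and 0.65 with prednisolone, against -0.0026, 0.21, -0.48 and -0.31 with vehicle. Only prednisolone mouse 2 lay below the highest vehicle mouse. The change of 0.51 had a two-sided exact permutation p of 0.0571 (adjusted p = 0.229) and was 0.56 without those 3 arrays. Bcl11b, a factor needed for T lineage commitment, differed by 0.06 ± 0.09, and its direction turned to -0.087 without the same arrays.

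**Figure D2:**
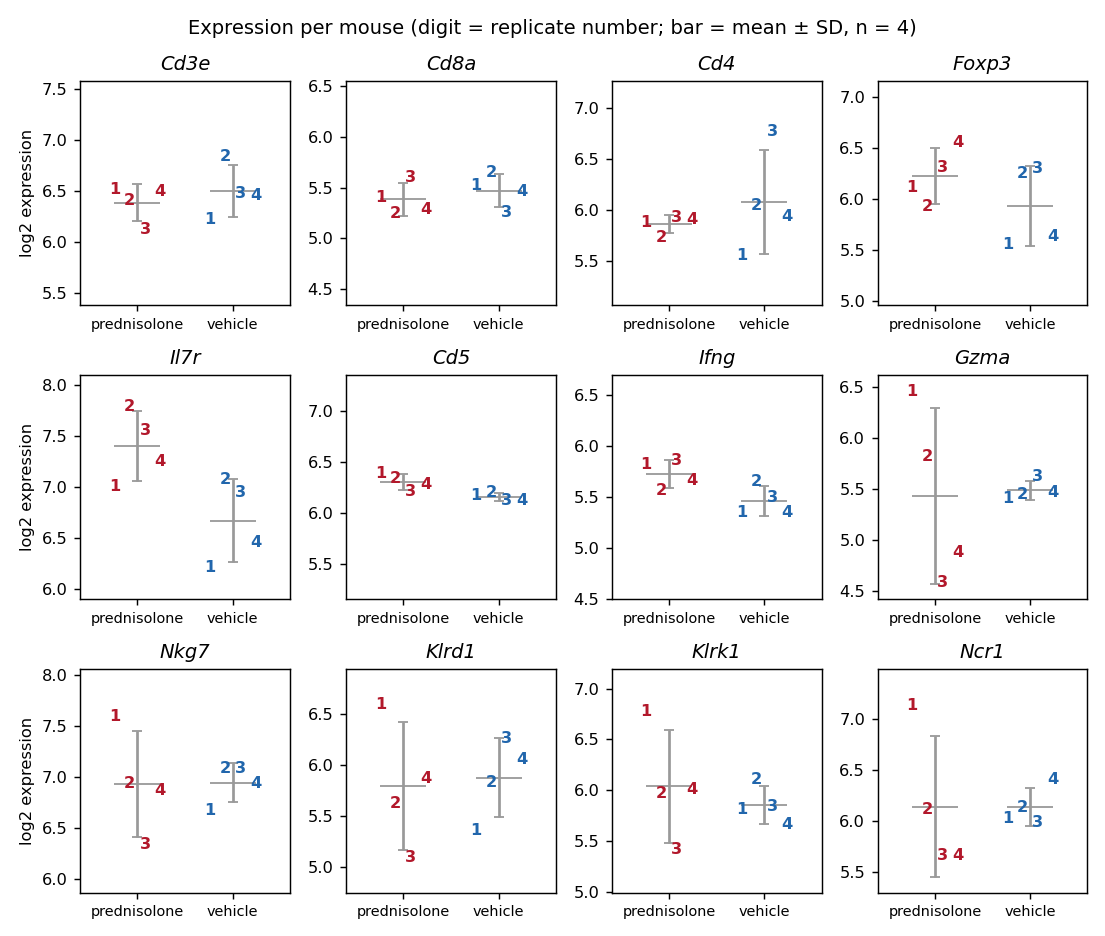
log2 expression (vertical axis, same span in every panel) of 12 T and NK genes in each mouse, with prednisolone in red and vehicle in blue. Digits are replicate numbers and grey bars show mean ± SD (n = 4). Il7r sits higher in most prednisolone mice, and for Gzma, Nkg7, Klrd1, Klrk1 and Ncr1 mouse 1 is the highest and mouse 3 the lowest of the prednisolone mice.

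Among cytotoxic and NK members the prednisolone mice spread by more than 1 in 6 of 9 and the vehicle mice in 0 of 9. The prednisolone range exceeded the size of the group difference in 27 of all 28 members, so that relation is not particular to these genes. No share over all genes is given for it, so that count is no result about the members either. Gzma, granzyme A, ran from 4.58 in mouse 3 to 6.46 in mouse 1 among prednisolone mice, and only from 5.40 to 5.62 among vehicle mice. The group means of 5.43 and 5.48 differed by -0.05 ± 0.37. That difference was -0.39 without prednisolone mouse 1, 0.23 without prednisolone mouse 3 and -0.23 without the 3 arrays rich in epididymal transcripts. Nkg7, a membrane protein of cytotoxic granules, ran from 6.34 (mouse 3) to 7.60 (mouse 1) with prednisolone and from 6.68 to 7.09 with vehicle, and differed by -0.01 ± 0.24 (-0.15 without the same arrays). Prf1, the pore-forming protein perforin, hardly varied, at 6.52 to 6.61 with prednisolone and 6.53 to 6.68 with vehicle. Gzmb, granzyme B, read 5.73, 4.98, 4.83 and 4.99 with prednisolone and 4.80, 4.81, 4.94 and 4.72 with vehicle. Prednisolone mice 1, 2 and 4 lay above every vehicle mouse, mouse 1 by the most, and mouse 3 lay inside the vehicle range. The difference of 0.31 ± 0.19 (adjusted p = 0.791) was 0.11 without prednisolone mouse 1.

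Ifng, the interferon gamma gene of T and NK cells, had the second lowest p of the members. It read 5.82, 5.57, 5.86 and 5.66 in prednisolone mice, against 5.34, 5.65, 5.49 and 5.35 in vehicle mice. The ranges overlapped through vehicle mouse 2 alone, which lay above prednisolone mouse 2. The difference was 0.27 ± 0.11, a ratio of 1.20 (95% interval of the log2 difference 0.02 to 0.51, unadjusted p = 0.0346, limma adjusted p = 0.791). It ran from 0.22 to 0.33 over fits that left out 1 mouse and was 0.21 without the 3 arrays rich in epididymal transcripts. Its signal lay in the dimmest 33.3% of genes. Tbx21, which encodes T-bet, the factor that activates Ifng in T and NK cells, averaged 6.89 ± 0.09 with prednisolone and 6.65 ± 0.08 with vehicle (SD, n = 4 each). Those groups did not overlap (0.24 ± 0.08, adjusted p = 0.791), as in 3.25% of all genes. Tbx21 was named as the gene of lowest p among 13 further lineage regulators, of which 6 were higher and 7 lower.

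For Ncr1, Klrk1 and Klrd1, as for Gzma and Nkg7, prednisolone mouse 1 was the highest and mouse 3 the lowest of their group. Ncr1, the activating receptor NKp46, read 7.14, 6.11, 5.66 and 5.67 in prednisolone mice and 6.03, 6.14, 5.98 and 6.41 in vehicle mice. Mouse 1 stood above every vehicle mouse and mice 3 and 4 below all of them, so the difference was 0.004 ± 0.31. It was -0.33 without prednisolone mouse 1. Klrk1, which encodes the activating receptor NKG2D, read 6.77, 5.97, 5.42 and 6.01 with prednisolone and 5.81, 6.10, 5.84 and 5.66 with vehicle (0.19 ± 0.25, adjusted p = 0.882). Klrd1, the CD94 chain, ran from 5.10 (mouse 3) to 6.602 (mouse 1) with prednisolone and from 5.36 to 6.26 with vehicle. Ncr1 minus Cd3e changed by 0.12 between the groups (two-sided exact permutation p = 0.8, adjusted p = 0.857), and by -0.17 without prednisolone mouse 1.

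The wide spread within the prednisolone group lay mostly in the cytotoxic and NK members. The gap between the highest and lowest prednisolone mouse exceeded 1 in 8 of 28 members (28.6%), Cd3g, Il2rb, Gzma, Nkg7, Klrb1c, Klrk1, Klrd1 and Ncr1, and in 5.87% of all genes. These were 6 of the 9 cytotoxic and NK members and 2 of the 19 others. Among vehicle mice it exceeded 1 in 1 member, Cd4 (3.57%), and in 9.19% of all genes. Prednisolone mouse 1 was the highest of its group in 17 of 28 members (60.7%, against 23.3% of all genes) and mouse 3 the lowest in 12 (42.9%, against 23.3% of all genes). Mouse 1 exceeded mouse 3 by more than 1 in 7 members, as it did in 1.02% of all genes. Prednisolone mouse 3 had the lowest Ptprc value of its group, the gene of the leukocyte marker CD45, at 8.68, and mouse 1 the highest at 9.39, against 8.51 to 9.21 in vehicle mice. In the vehicle group, mouse 2 was highest in 18 of 28 members (64.3%, against 31.7% of all genes) and mouse 1 lowest in 14 (50%, against 34.3%). These counts describe the 8 arrays and were not tested.

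**Figure D3:**
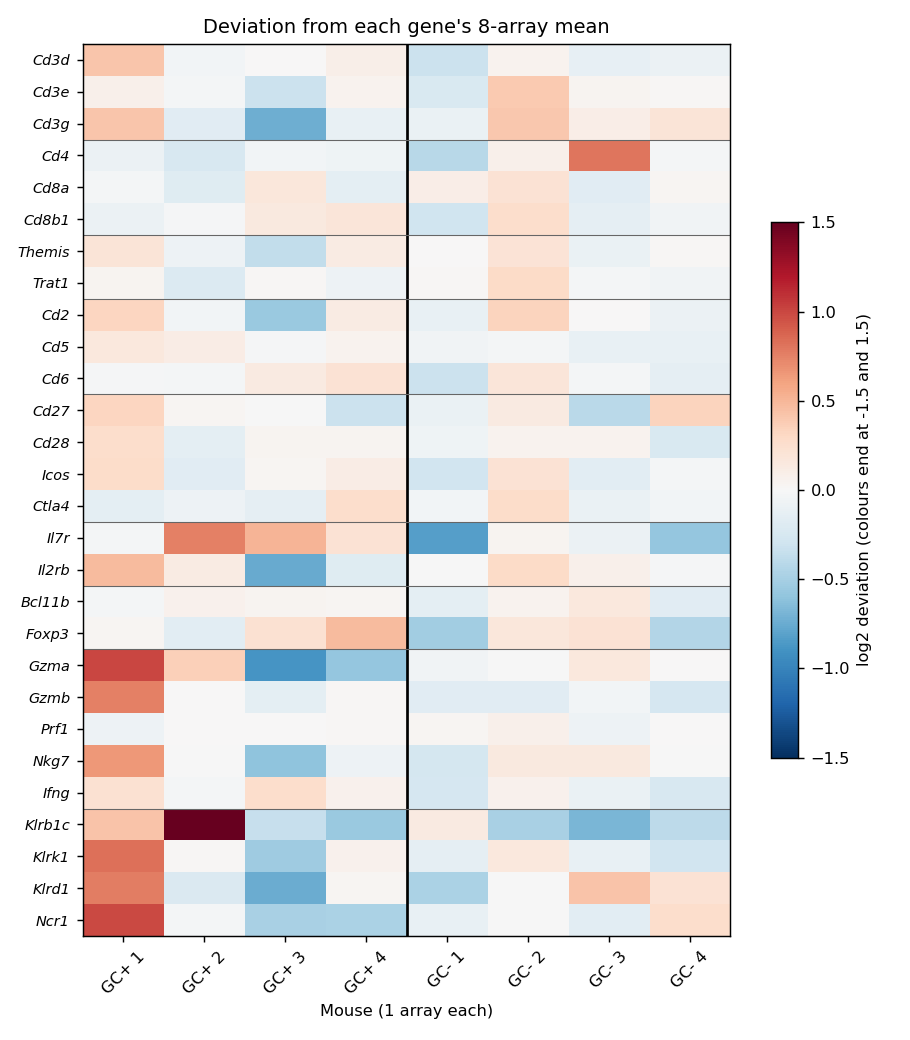
Deviation of each T and NK gene (rows, ordered by role) from its own mean over the 8 arrays, in log2 units, with the 4 prednisolone mice in the left columns and the 4 vehicle mice in the right columns. Prednisolone mouse 1 is red and mouse 3 blue for most granule and NK receptor genes, and the Klrb1c cell of prednisolone mouse 2 exceeds the colour scale.

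Further NK genes were counted for the same mice. Among 16 further NK and cytotoxic genes fixed beside the members, mouse 1 was the highest prednisolone mouse in 10 and mouse 3 the lowest in 8, and mouse 1 lay above mouse 3 in 14. Over all genes mouse 1 lay above mouse 3 in 48.1%. The prednisolone range exceeded 1 in only 2 of these 16 genes, so the wide spread of the members did not recur in them. Klrc1, which encodes the NKG2A partner of Klrd1, read 5.12, 4.90, 4.50 and 4.87 with prednisolone and 4.45, 4.43, 4.93 and 4.55 with vehicle. The order of these 2 mice was not particular to NK genes. Mouse 1 lay above mouse 3 in 9 of 9 dendritic cell genes, of which mouse 3 was lowest in 7. It did so in 11 of 12 genes of adipose regulatory T cells, 14 of 19 homing genes and 16 of 17 epididymal genes. For type 2 innate lymphoid cell genes, and for gamma delta T and NKT genes, the count was 4 of 8 each. Among macrophage genes, prednisolone mouse 1 was highest in 11 of 18 and above mouse 3 in 13, while mouse 3 was lowest in 2. B and plasma cell genes had mouse 1 highest in 8 of 13 and mouse 3 lowest in 5. The macrophage genes' mean deviation was 0.40, -0.05, 0.24 and -0.07 in prednisolone mice 1 to 4. The part of other leukocytes in the spread was not tested.

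Klrb1c, which encodes NK1.1, the standard NK marker of C57BL/6 mice, stood apart from the other NK receptors. It read 5.60, 7.06, 4.82 and 4.62 in prednisolone mice and 5.30, 4.68, 4.49 and 4.78 in vehicle mice. Its highest value came from prednisolone mouse 2, which was not the highest prednisolone mouse for Ncr1, Klrk1 or Klrd1. The difference of 0.71 ± 0.49 (95% interval -0.40 to 1.83, adjusted p = 0.795) was 0.20 without that mouse and 0.43 without the 3 arrays rich in epididymal transcripts. With the epididymal score as a covariate it was larger, at 0.88 (unadjusted p = 0.0170, limma adjusted p = 0.685). Prednisolone mouse 2 also had the brightest reading of Lcn8, a lipocalin of the proximal epididymis, at 13.50. The next highest Lcn8 values, 9.26 in prednisolone mouse 1 and 9.51 in vehicle mouse 1, came from the mice next highest in Klrb1c. The other 2 prednisolone mice read 5.76 and 5.95 for Lcn8 and the other 3 vehicle mice 5.89 to 6.91. Adam28, another epididymal gene, read 12.71 in prednisolone mouse 2, 8.24 in prednisolone mouse 1 and 8.46 in vehicle mouse 1. Gpx5, an epididymal glutathione peroxidase, did not share this order, with 13.60 in vehicle mouse 4 where Klrb1c read 4.78. Nor did the epididymal genes Defb30, Bsph1 and Adam7, which were highest in vehicle mouse 1, at 11.78, 8.52 and 13.57. Lcn8 and Adam28 were chosen after their values were seen, and the relation of either to Klrb1c was not tested.

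**Figure D4:**
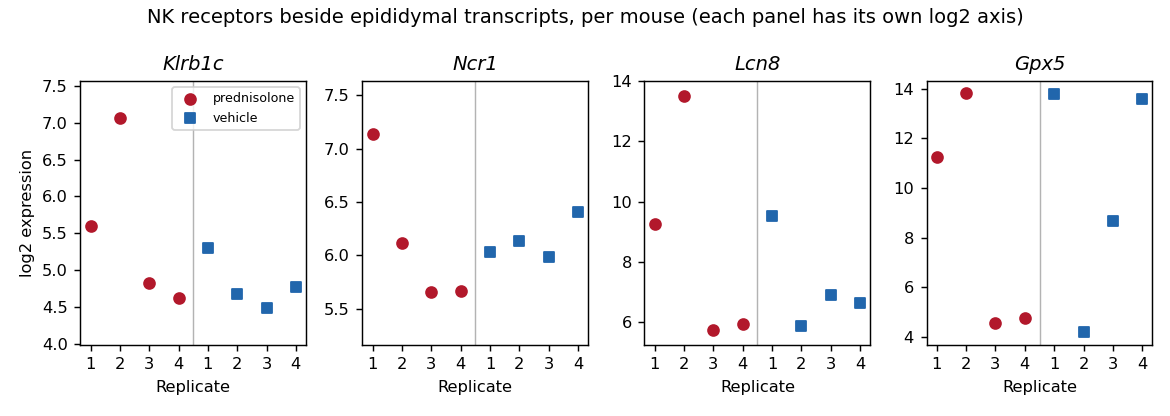
log2 expression (vertical axes, own range in each panel) of the NK receptors Klrb1c and Ncr1 and the epididymal genes Lcn8 and Gpx5 in each mouse (prednisolone replicates 1 to 4 as red circles, vehicle replicates 1 to 4 as blue squares). Prednisolone mouse 2 is highest for Klrb1c and Lcn8, while prednisolone mouse 1 is highest for Ncr1.

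Other genes of lymphocyte biology gave no call either. Across 8 further lists holding 104 genes that are no members, 0 passed the adjusted threshold, 62 were higher and 42 lower on average (56.4% of all genes were higher), and the median difference was 0.03. T cell receptor signalling genes were higher in 14 of 17 (0 passed, median 0.07), with Fyn, a Src family kinase, at 0.21 ± 0.16 and Sla, an adaptor that dampens the receptor, at -0.22 ± 0.18. Without the 3 arrays rich in epididymal transcripts the medians of several lists lay below 0, at -0.03 for T cell receptor signalling, -0.03 for gamma delta T and NKT genes, -0.08 for regulatory T cell genes and -0.17 for homing genes. Over all 8 arrays the medians of the last 3 were 0.09, 0.04 and 0.01. Genes of adipose regulatory T cells were higher in 7 and lower in 5 (0 passed), with the checkpoint receptor Tigit at 0.27 ± 0.15. For type 2 innate lymphoid cell genes the split was 4 and 4 (0 passed), and Il5 differed by -0.13 ± 0.09. Homing and chemotaxis genes were higher in 11 and lower in 8 (0 passed), with the integrin Itgb7 at 0.22 ± 0.13 and the chemokine receptor Cxcr4 at -0.32 ± 0.21. Survival and growth cytokine genes were higher in 5 and lower in 8 (0 passed). Il15ra, which presents interleukin 15 to NK and CD8 T cells, read 7.84 to 8.19 with prednisolone and 7.98 to 8.64 with vehicle (-0.34 ± 0.15, adjusted p = 0.791). Il33, the alarmin that sustains adipose regulatory T cells, read 6.99 to 7.37 with prednisolone and 7.04 to 8.06 with vehicle (-0.43 ± 0.20, adjusted p = 0.791). Lineage regulators beyond the members were higher in 6 and lower in 7, gamma delta T and NKT genes higher in 5 and lower in 3, and NK and cytotoxic genes higher in 10 and lower in 6, with 0 passing in each.

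Markers of other cells in the fat pad gave these values beside the lymphocyte genes. B and plasma cell genes were lower in 8 of 13 (median -0.03), with Cd79a, a B cell receptor chain, at 5.99 to 6.18 with prednisolone and 6.15 to 6.31 with vehicle. Macrophage genes were higher in 15 of 18 (median 0.26, range 0.098 to 0.53 without 1 mouse), and that median was -0.11 without the 3 arrays rich in epididymal transcripts. Lgals3, which encodes the lectin galectin 3, differed by 0.63 ± 0.20 with groups that did not overlap, and Trem2, a lipid-sensing receptor, by 0.72 ± 0.27 (adjusted p = 0.791 for each). Adgre1, an adhesion receptor that marks macrophages, differed by 0.45 ± 0.44. Glycam1, a marker of the high endothelium of lymph nodes, read 5.29 to 5.58 with prednisolone and 5.29 to 5.52 with vehicle, within the dimmest 33.3% of genes on average. In none of these lists did a gene pass. Cd3e minus Ptprc, the T cell chain against the common leukocyte marker on the same array, averaged -2.60 ± 0.18 in prednisolone mice and -2.33 ± 0.30 in vehicle mice (SD, n = 4 each). The change of -0.27 had a two-sided exact permutation p of 0.2 (adjusted p = 0.4), and it ran from -0.41 to -0.18 over fits that left out 1 mouse.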

How the data were processed

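Total RNA (100 ng) from the fat of 8 mice was measured on 1 array each. The deposited values are log2 expression values that the authors made by RMA in Affymetrix Expression Console, per the labels, which corrects background and equalises the arrays by quantiles. The submitters' processing notes also list Partek 6.6 without its role, and the genome build is not given in the sources used here. RMA compresses differences at low signal. The platform annotation gave 23521 of 41345 probe sets 1 symbol, 1814 several and 16010 none. The brightest probe set per gene was kept, leaving 22180 genes. Array medians ran from 6.09 to 6.13, no arrays were identical, and pairs of arrays correlated at 0.946 to 0.991 across genes. The number of arrays limits precision, and the median SE of a member was 0.17.

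limma 3.58.1 (R 4.3.3, lmFit and eBayes) compared GC+ with GC- over all 22180 genes with no covariate, and adjusted by Benjamini-Hochberg. Its script was tested on simulated data. Within-array differences used exact permutation tests over all 70 assignments. Lists were described by counts and medians. Members, lists and the naming rule were chosen with earlier results of these data known. The rule gave values per mouse for the 6 members of lowest p, members whose groups did not overlap and 12 fixed members. Among the fixed members, Cd247 was not analysed. Other members were given by difference or range under the rule. Of each further list it named up to 2 genes of lowest p, and it also allowed Ptprc, Gpx5, Adam7, Glycam1, Cd79a, Adgre1 and Adipoq. Lcn8 and Adam28 were named outside the rule. Alternatives changed the dim gene filter, probe set choice, normalization, variance model, replicate block and epididymal adjustment, or dropped 1 mouse at a time. Figures used matplotlib 3.10.9.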

Additional observations from a re-analysis of the deposited data

Results flagged for a closer look

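Of 66 groups of 4 mice examined (28 members and 5 within-array differences in each treatment), 3 held a mouse far from the other 3, by Dixon's gap test at the 95% level. Chance gives such a gap in about 1 of 20 groups. Prednisolone mouse 4 read 4.94 for Ctla4, against 4.53 to 4.60 in the other prednisolone mice. Vehicle mouse 2 read 4.95 for Ctla4, against 4.58 to 4.64 in the other vehicle mice. Prednisolone mouse 1 read 6.52 for Prf1, against 6.61 in each of the other 3 prednisolone mice, in a group whose whole range was 0.094. The Ctla4 signal was among the dimmest 33.3% of genes.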

How the results depend on the processing

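With limma, 0 members passed the adjusted threshold in the main analysis and under any of the 15 alternatives, and the lowest adjusted p of a member was 0.515. Of 408 single-gene differences under alternatives, 384 kept their direction, and 16 of the 28 members kept it throughout. The dim gene filter, probe set choice, variance model and replicate block cannot change the size of a member's difference here. Part of the 384 was therefore fixed in advance, and the count is no measure of robustness. Over the fits without 1 mouse the differences ran from -0.20 to 0.094 for Cd2, -0.12 to 0.13 for Cd27, -0.39 to 0.015 for Cd4, -0.14 to 0.035 for Ctla4, -0.39 to 0.23 for Gzma, -0.36 to 0.055 for Il2rb, -0.35 to 0.15 for Klrd1, -0.054 to 0.40 for Klrk1, -0.33 to 0.17 for Ncr1, -0.23 to 0.19 for Nkg7 and -0.14 to 0.044 for Themis. Other reversals were Bcl11b at -0.087 without the 3 arrays of epididymal score over 1, Gzma at 0.015 with that score as a covariate, and Nkg7 at 0.0064 after a repeated quantile normalization. The cause was not tested. Without the dimmest 33.3% of genes 9 members were higher and 7 lower, because fewer members (16) remained. Over the fits without 1 mouse 12 to 21 members were higher, 7 to 16 lower, and the median ran from -0.03 to 0.12. Groups did not overlap in 1 to 4 members over those fits. Fewer mice leave more genes without overlap, and the 3.25% of all genes holds for 4 against 4 mice only. That range is therefore no result about the members. Without the 3 arrays the groups of 4 members (Cd4, Cd5, Bcl11b and Ifng) did not overlap, as in 19.2% of all genes. Cd8a minus Cd4 ran from -0.17 to 0.32 and Ncr1 minus Cd3e from -0.17 to 0.31 without 1 mouse. With the replicate number as a block, 0 members passed and the median stayed at 0.01, and the number of genes at an unadjusted p under 0.05 was 818, against 1244. Over all genes, the deviations of same-numbered mice from their group means correlated at -0.14, -0.49, 0.11 and -0.23. With 4 mice per group, and epididymal transcripts that differ between arrays, these values cannot show whether the numbers pair the mice. Low signal limits what can be seen of the 12 members in the dimmest 33.3% of genes.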
